A study of Mus musculus with 21 samples.

Results

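The collagen genes of the mouse heart were followed across a layout of diet by renin. A gene was taken as a member when its symbol in the gene table deposited with the series had the form Col, a number, the letter a and a number. This rule found 44 of 19096 genes, and 44 of the 44 were also found in the transcript tables. The library is the unit of replication, with 21 hearts in all. By structure the members were placed in 11 fibrillar genes, 9 network-forming genes, 9 genes of fibril-associated collagens with interrupted triple helices (FACIT) and 15 others, which hold the beaded-filament, anchoring, transmembrane and endostatin-bearing collagens.

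Mice of all groups were male C57BL/6NJ, aged 8 to 10 weeks at the start, and stayed on chow or on a diet with 60% of energy from fat for 10 weeks. They were injected behind the eye with an adeno-associated virus (AAV) for renin or with its control, and hearts were taken 6 weeks later. Chow control held 4 hearts with neither treatment, chow renin held 6 with the renin virus alone, high-fat control held 6 with the diet alone and high-fat renin held 5 with both, the last being the combined model, meant to mimic heart failure in which ejection is preserved. Sample labels name the controls as having no virus, while the series text names a null vector. The promoter and the cell type in which renin was made are not given in the sources used here, and the heart was sampled whole or in part without a stated chamber.

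Collagens are triple helices of 3 chains, wound in the endoplasmic reticulum after hydroxylation of prolines and lysines. Types I and III form the fibrils that bear load between heart muscle cells, and type V starts and thins those fibrils. Type IV forms the sheet of the basement membrane around capillaries and muscle cells, type VI forms beaded filaments beside it, types XV and XVIII link basement membranes to the matrix, and type VIII forms hexagonal lattices around vessels and in injured tissue. Fibroblasts make most of the fibrillar collagen of the heart, and endothelial cells and pericytes make much of its type IV.

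Many collagen transcripts carry sites for the miR-29 family, a group of small RNAs known to repress collagens in heart fibroblasts. The family is shown because its members share a seed (bases 2 to 8, in capitals) and the matching site recurs across the collagen classes. The mature sequences come from RefSeq on GRCm38.p6 and lie at chr6:31062673-31062694 (minus strand, miR-29a-3p), chr6:31063025-31063047 (minus strand, 1 of the copies of miR-29b-3p) and chr1:195037600-195037621 (plus strand, miR-29c-3p).
mmu-miR-29a-3p: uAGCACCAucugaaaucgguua
mmu-miR-29b-3p: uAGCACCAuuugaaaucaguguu
mmu-miR-29c-3p: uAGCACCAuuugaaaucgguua
Sites in 3′ UTRs of 6 members on which the results turn are printed as DNA on the strand of the gene, with the 7 bases that match the seed, TGGTGCT, in capitals. The 22-base windows lie on GRCm38 at chr16:57624706-57624727 (minus, Col8a1), chr8:11199762-11199783 (minus, Col4a1), chr4:47312485-47312506 (plus, Col15a1), chr1:45374966-45374987 (minus, Col5a2), chr11:94952523-94952544 (plus, Col1a1) and chr1:45348967-45348988 (plus, Col3a1).
Col8a1: ctgtatattctaccaTGGTGCT
Col4a1: gccaccgtcacaacaTGGTGCT
Col15a1: atccaatccacatatTGGTGCT
Col5a2: cttttcttttaatgaTGGTGCT
Col1a1: gtgggaaggaatttcTGGTGCT
Col3a1: ttcaaaatgtctcaaTGGTGCT
The motif was searched on the strand of the transcript in 1 annotated 3′ UTR per gene (GENCODE M21). It was found in 23 of 38 tested collagen genes, 60.5%, and in 15.8% of 14446 other tested genes. Among UTRs of 1000 to 3000 bases the shares were 70.6% of 17 collagen genes and 17.2% of 5820 others. Col4a3, Col5a1 and Col26a1 had 4 matches each, and Col1a2, Col6a1, Col12a1, Col14a1 and Col18a1 had 0. Small RNAs were not measured in these libraries, and a match is a description of the letters and not a measured site.

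Libraries held between 18.74 and 29.27 M estimated reads, with at most 21.41 M in a chow control and at least 22.81 M in a library of any other group. Depth and group can therefore not be told apart in comparisons with chow control. Cardiomyocyte markers averaged 11.8 to 12.2 log2 CPM (read counts scaled to a common library size, not to gene length) per library, as the heart label has it. In 5 libraries (chow control 3, chow renin 1 and 3, high-fat control 3 and high-fat renin 3) the atrial light chain Myl7 measured 103 to 254 CPM, against 0.278 to 2.98 CPM in the other 16. High-fat control 6 had no such atrial signal but the highest Col1a1, Col1a2 and Col3a1 of its group and 181 CPM of Nnt, a mitochondrial transhydrogenase, against 539 to 973 CPM in the other 20 libraries. The main changes in counts and calls without these libraries are given with each comparison. Because tissue was sequenced in bulk, fewer cells of a type and less RNA per cell cannot be told apart.

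Collagen RNA in these hearts was dominated by basement membrane and fibrillar chains. In TPM, a level scaled to transcript length and library size, the means over 21 libraries were 48.3 for Col4a1, 45.5 for Col4a2, 38.4 for Col3a1, 24.2 for Col1a2, 19.96 for Col6a1, 18.9 for Col6a2, 17.5 for Col1a1 and 15.1 for Col15a1. These 8 genes held 85.1% of the collagen TPM. A further 9 members averaged 1 to 10 TPM (Col4a5, Col5a1, Col5a2, Col5a3, Col6a3, Col8a1, Col14a1, Col16a1 and Col18a1), and 27 averaged under 1 TPM, 8 of them under 0.1 TPM. The 6 members that did not pass the filter on low counts (Col2a1, Col6a4, Col6a5, Col9a1, Col10a1 and Col17a1) had 0 to 12 reads in any library. The other 38 were tested.

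Summed over all members, collagen transcripts measured 366 ± 69.1 TPM in high-fat renin (SD, n = 5). The sums were 243 ± 80.7 TPM in high-fat control (n = 6), 234 ± 25.4 TPM with renin on chow (n = 6) and 232 ± 47.4 TPM in the chow controls (n = 4). The high-fat renin libraries ranged from 298 to 468 TPM. They overlapped with chow control, whose replicate 3 reached 300.3 TPM, and with high-fat control, whose replicate 6 reached 391 TPM. Network collagens measured 92.9 ± 7.28 TPM in the chow controls, 93.7 ± 8.76 with renin on chow, 85.9 ± 12.1 with the fat diet alone and 145 ± 48.1 in high-fat renin, where the libraries ranged from 108 to 220.5 TPM and the highest library of the other groups was also at 108 TPM. Fibrillar collagens measured 77.6 ± 24.6, 75.4 ± 13.9, 90.3 ± 50.2 and 133 ± 34.8 TPM in the same order, and FACIT genes 4.82 ± 1.98, 5.96 ± 1.97, 5.40 ± 3.36 and 7.86 ± 1.36 TPM. These sums are given as a description, with no test.

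**Figure D1:**
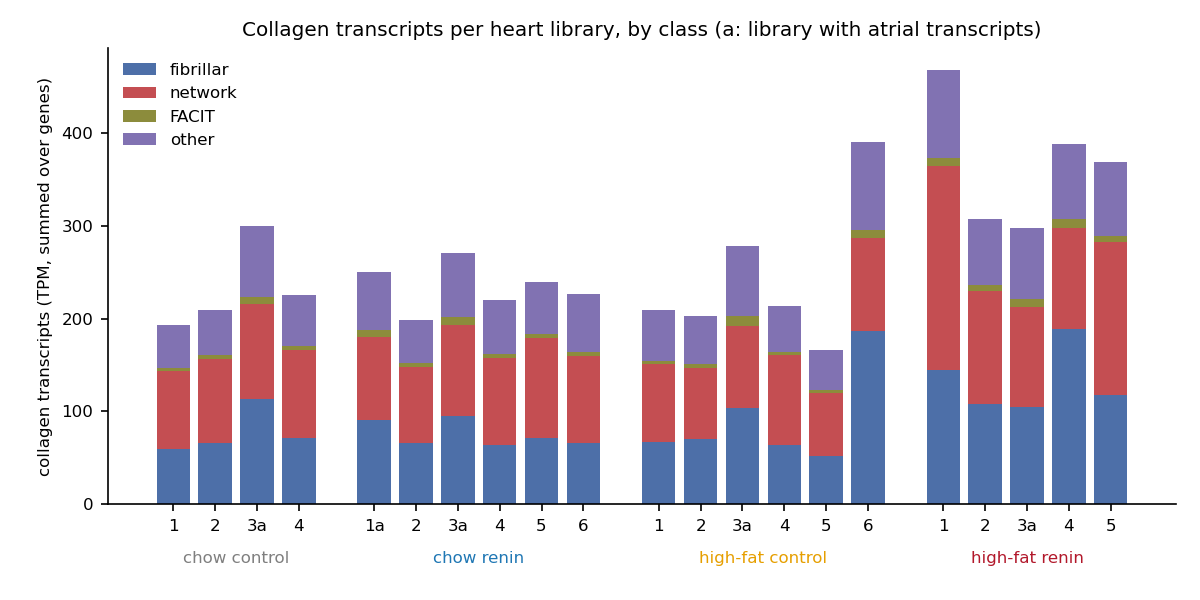
Collagen transcripts in TPM (vertical axis, summed over the 44 genes) in each of 21 heart libraries, stacked by class, with the replicate number under each bar and the letter a for the 5 libraries with atrial transcripts. The 5 high-fat renin bars reach 298 to 468 TPM, and chow control 3 (300.3 TPM) and high-fat control 6 (391 TPM) stand above the rest of their groups.

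The combined model was compared with chow control to ask what renin and the diet did together. Col8a1, the type VIII lattice chain, rose most among members averaging at least 1 TPM, and chains of types IV, V, VI and XV rose with it. By edgeR's quasi-likelihood F test with Benjamini-Hochberg adjustment over 15216 genes, 8 of 38 tested members were called at an adjusted p under 0.05, where 8.29% of all tested genes were called. All 8 were higher (4.05% of all genes were called higher and 4.25% lower): 3 of 8 network, 2 of 10 fibrillar, 1 of 8 FACIT and 2 of 12 other members. The median log2 fold change was 0.56 over the 38 members and 0.01 over all genes. Every high-fat renin library was above every chow control library for 9 of 38 members, the 8 called and Col16a1, a background of 4.98% of genes.

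Among the network collagens, Col8a1 measured 14.9, 14.7, 20.1 and 13.8 CPM in the chow controls and 71.8, 46.4, 27.3, 30.6 and 59.3 CPM in high-fat renin. The groups did not overlap, and the lowest high-fat renin value was that of replicate 3, a library with atrial transcripts. The log2 fold change was 1.57 (edgeR adjusted p 0.00133, SE 0.25). Col4a1, an essential chain of the basement membrane sheet, measured 329, 342, 358 and 369.9 CPM in the chow controls and 788, 479, 376, 431 and 645 CPM in high-fat renin. Replicate 3 of high-fat renin lay just above the highest chow control and replicate 1 far above it, so the spread within high-fat renin was wide. Its log2 fold change was 0.64 (edgeR adjusted p 0.0196, SE 0.16). Col4a2, its partner chain in the same trimer, measured 308, 323, 325 and 348 CPM against 687, 416, 349, 392 and 526 CPM, a log2 fold change of 0.54 (edgeR adjusted p 0.0202, SE 0.14).

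Col4a1 and Col4a2 lie head to head on chromosome 8 and share 22 bases of their first exons in RefSeq (chr8:11312805-11312826, GRCm38.p6). Their ratio in TPM stayed narrow, at 1.06 ± 0.00527 for the chow controls (n = 4), 1.02 ± 0.0429 for renin on chow (n = 6), 1.02 ± 0.0524 for the fat diet alone (n = 6) and 1.11 ± 0.0663 for high-fat renin (n = 5). The ratio of the type VIII chains, Col8a1 to Col8a2, was wide: it ranged from 4.78 to 79.3 in the chow controls, with the lowest value in the library with atrial transcripts.

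Of the fibrillar collagens, the type V chains Col5a1 and Col5a2 passed, and the third type V chain, Col5a3 (0.48, adjusted p 0.17), and the chains of types I and III did not. Col5a2 measured 18.9, 23.7, 32.7 and 19.6 CPM in chow control and 56.3, 43.5, 38.4, 48.6 and 49.5 CPM in high-fat renin, with no overlap. Its log2 fold change was 0.996 (edgeR adjusted p 0.00634, SE 0.21), and that of Col5a1 was 0.50 (SE 0.13, adjusted p 0.0229). The ratio of Col5a2 to Col5a1 in TPM was 0.719 ± 0.179 for the chow controls (n = 4), 0.937 ± 0.112 for renin on chow (n = 6), 0.707 ± 0.0853 for the fat diet alone (n = 6) and 1.005 ± 0.0511 for high-fat renin (n = 5). Every high-fat renin library, from 0.941 up, was above every high-fat control, which reached 0.836, and just above the highest chow control at 0.939. Chow renin went down to 0.782 and overlapped both groups without renin. These ratios are a description with no test.

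Col1a1, the type I chain present in duplicate in each trimer, measured 77.9, 81.3, 155 and 88.5 CPM in chow control and 172, 151, 144, 272 and 162 CPM in high-fat renin. The chow control of 155 CPM, replicate 3, was the library with atrial transcripts and lay within the high-fat renin range. Its log2 fold change of 0.84 (SE 0.34) did not pass (edgeR adjusted p 0.137), nor did those of Col1a2, 0.65 (SE 0.26, adjusted p 0.138), and Col3a1, 0.87 (SE 0.33, adjusted p 0.117). Col3a1 measured 126, 133, 210.0 and 148 CPM in chow control against 308, 214, 195, 445 and 245 CPM. In high-fat renin 4 of 5 libraries were above all chow controls for Col3a1, 3 of 5 for Col1a1 and 2 of 5 for Col1a2.

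In the remaining classes, Col15a1, a basement membrane linker, measured 62.7, 58.5, 100.1 and 81.4 CPM in chow control and 166, 119, 111, 113 and 143 CPM in high-fat renin, a log2 fold change of 0.78 (edgeR adjusted p 0.00616, SE 0.16). Col6a3, the long chain of type VI, measured 28.6, 32.0, 43.6 and 28.3 CPM against 66.0, 53.8, 54.6, 61.8 and 51.8 CPM, a log2 fold change of 0.80 (SE 0.21, adjusted p 0.0253). Groups did not overlap for either gene. Col6a1, its partner, did not pass (0.38, SE 0.14, adjusted p 0.097). The FACIT gene Col9a2, best known from cartilage, rose at a very low level, with 1 to 5 reads per chow control and 9 to 39 reads per high-fat renin library (log2 fold change 2.60, SE 0.68, adjusted p 0.0208). Col12a1, Col14a1 and Col18a1, which coat fibrils or carry endostatin, differed by 0.98, 0.78 and 0.52 on the log2 scale and did not pass (adjusted p 0.192, 0.346 and 0.436).

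**Figure D2:**
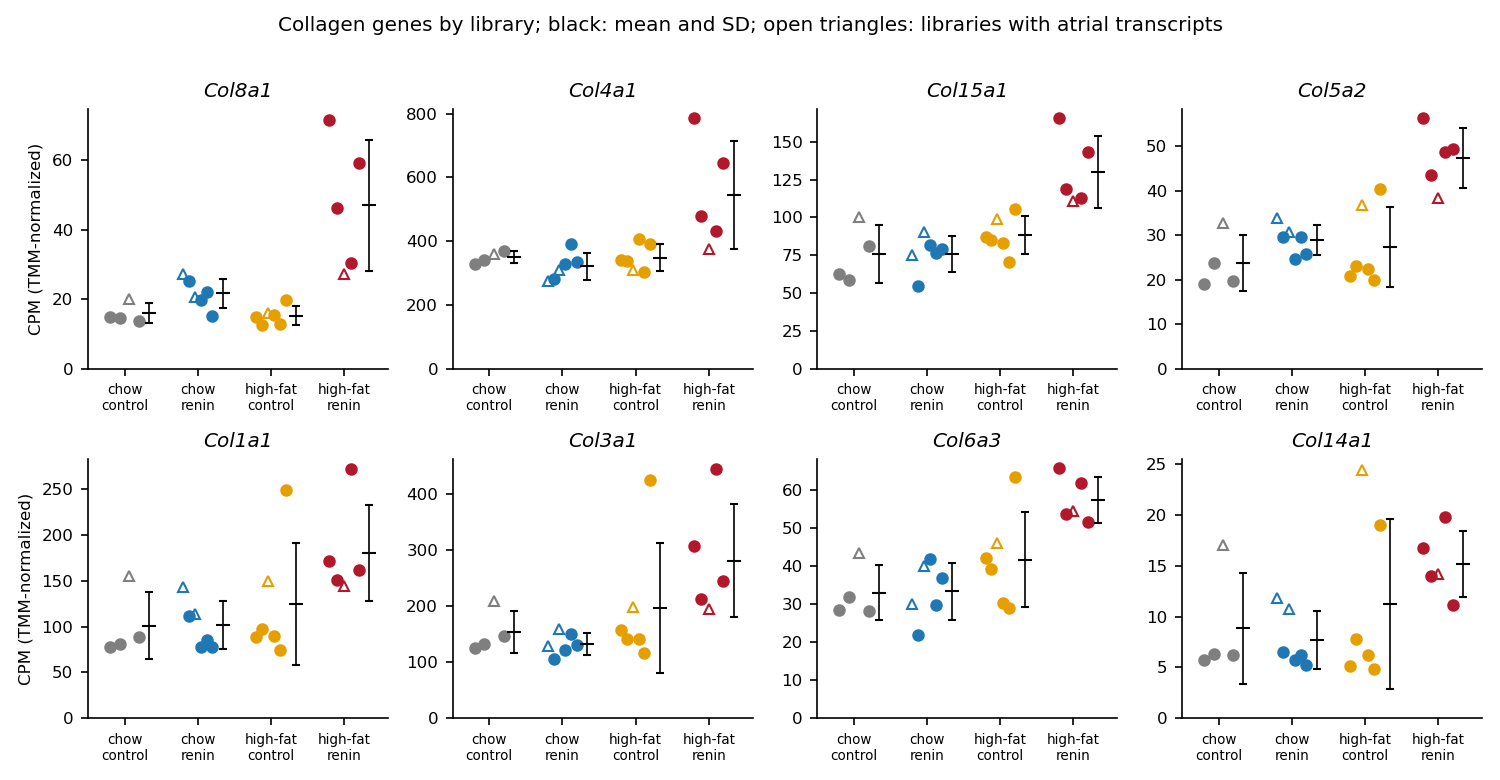
Normalized CPM (vertical axes, from 0) of 8 collagen genes in each library by group, with the mean and SD in black and the 5 libraries with atrial transcripts as open triangles. Col8a1 is at 27.3 to 71.8 CPM in high-fat renin and at 20.1 CPM or less in both control groups, while single control libraries of Col1a1, Col3a1 and Col14a1 reach the high-fat renin range.

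Col8a1, Col5a2 and Col15a1 were called in each of 21 fits that left out 1 library. Col4a1 and Col4a2 lost their calls without chow control 1 or 2 or high-fat renin 1 or 5 (adjusted p 0.0544 to 0.0654). Col5a1, Col6a3 and Col9a2 lost theirs without 3 or 4 libraries each (from chow control 1, 2 and 4 and high-fat renin 1 and 2, adjusted p up to 0.0897). The count was 3 without chow control 1 (4.49% of genes called) or high-fat renin 1 (4.37%), 4 without chow control 2 (4.05%) and 14 without chow control 3 (8.71%). In the 16 libraries without atrial transcripts it was 17, and 8.34% of genes were called. Those 17 hold the 8 above, Col1a2 (log2 fold change 0.94, SE 0.26, adjusted p 0.0384), Col4a3, Col4a4, Col6a1, Col6a2, Col8a2 and Col16a1, and also Col12a1 (1.41, adjusted p 0.0139) and Col18a1 (0.79, adjusted p 0.037). Col1a1 (1.18, SE 0.37, adjusted p 0.0706), Col3a1 (1.15, SE 0.40, adjusted p 0.102) and Col14a1 (1.32, adjusted p 0.0535) did not pass there. Nor did Col6a6, which was lower (-1.06, SE 0.35, adjusted p 0.0794). In the 15 libraries left when high-fat control 6 was removed too, 21 members and 11.6% of genes were called. These include Col1a1 (adjusted p 0.00227), Col3a1 (0.00521) and Col14a1 (0.000243) at the same folds, and Col3a1 was also called without high-fat control 6 alone (0.0217). A score of evening clock genes such as Dbp did not overlap between these groups, at 5.93 to 6.17 log2 CPM in chow control and 5.49 to 5.84 in high-fat renin. The clock covariate, this score minus that of the Arntl group, did not overlap either (3.41 to 3.73 in chow control, 2.21 to 3.25 in high-fat renin). With it in the fit edgeR called 0 of 38 members and 0 of 15216 genes, and 6 members had an unadjusted p under 0.05, as did 7.46% of genes. The 8 called members kept their sign in that fit, with Col8a1 at 0.71 (SE 0.27, adjusted p 0.631), Col5a2 at 0.73 and Col4a1 at 0.19. Clock and group cannot be told apart in this comparison.

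Cell type markers were set beside these values. Of 9 fibroblast markers 0 were called, and their mean was 5.48 to 5.89 log2 CPM in chow control and 5.53 to 5.84 in high-fat renin. Of 8 endothelial, 8 pericyte and smooth muscle and 8 macrophage markers, 0 were called in each list. Of 7 tested markers of activated fibroblasts 3 were called higher, with a mean of 4.17 to 4.56 log2 CPM in high-fat renin against 1.90 to 4.11 in chow control. Of 8 cardiomyocyte markers 5 were called lower. Of 6 proliferation genes 2 were higher, as was 1 of 5 clock genes of the Arntl group, and 4 of 9 of the Dbp group were lower. None of these lists has a gene at 0 in every library. With the fibroblast score as a covariate 25 members had an unadjusted p under 0.05 (26.1% of genes), where the main fit had 21 (23.9%). The count called in that fit is given with the processing below. Apart from this and the clock fit, the part of these lists in the collagen result was not tested.

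Genes that fold, process, bind and cut collagen were read from a list of 55, of which 52 were tested. In high-fat renin against chow control 10 were called higher and 1 lower, where 4.05% of all genes were called higher and 4.25% lower. In the folding and modification list 5 of 19 were higher. P4ha1, a catalytic subunit of prolyl 4-hydroxylase, rose from 50.6 ± 6.15 CPM (n = 4) to 92.8 ± 23.1 CPM (n = 5), a log2 fold change of 0.88 (edgeR adjusted p 0.00175, SE 0.15). P4ha2 (0.42), the lysyl hydroxylase Plod2 (0.35), the prolyl 3-hydroxylase P3h2 (0.77) and Serpinh1, the collagen chaperone HSP47 (0.42), were also called (adjusted p 0.00779 to 0.049). Of 11 fibril-associated proteins 3 were higher: Postn (1.89), Sparc (0.62) and Aspn (0.73). Of 9 receptors and uptake proteins 2 were higher, the integrin chain Itgb1 (0.26) and the endocytic receptor Mrc2 (0.44). Of 7 propeptide-removing enzymes 0 were called. Of 6 collagen-cleaving proteases 1 was lower, Mmp9, at -1.35 (SE 0.42, adjusted p 0.045) and a level of 1.403 ± 0.658 CPM in chow control.

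Renin on chow was compared with chow control to read renin alone. The abundant collagens did not pass in this comparison: Col1a1, Col1a2, Col3a1, Col4a1, Col4a2, Col5a1, Col5a2, Col6a1, Col6a3, Col14a1, Col15a1 and Col18a1 showed log2 fold changes of -0.27 to 0.29 (adjusted p 0.407 or more), and Col8a1 had 0.45 (SE 0.24, adjusted p 0.258). The called members were 3 of 38, all higher and all of very low level, where 13.5% of all genes were called (10.1% higher and 3.36% lower). The median log2 fold change of the members was 0.01, and that of all genes was -0.03. Every chow renin library was above every chow control for 5 members (Col11a1, Col19a1, Col24a1, Col25a1 and Col26a1), against 10.4% of genes.

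Col19a1, a FACIT collagen made by some interneurons, had 0, 1, 1 and 2 reads in the chow controls and 16 to 26 reads in the chow renin libraries, or 0.591, 0.670 and 0.880 CPM as the lowest, median and highest. The fitted log2 fold change was 3.68 (edgeR adjusted p 1.17e-05, SE 0.52), a size that depends on the prior count at so few reads. Col25a1, a transmembrane collagen of neurons, measured 0.398, 0.167, 0.571 and 0.582 CPM in chow control and 0.981, 1.48 and 3.32 CPM (lowest, median, highest) in chow renin, a log2 fold change of 1.94 (SE 0.37, adjusted p 0.000497). Col11a1, a fibrillar chain of cartilage, measured 0.199, 0.444, 0.779 and 0.242 CPM against 0.942, 1.58 and 2.52 CPM, a log2 fold change of 1.99 (SE 0.47, adjusted p 0.00424). For each of the 3 genes the groups did not overlap. Each kept its call in 21 of 21 fits without 1 library. Col12a1 did not pass (1.21, SE 0.44, adjusted p 0.0751), but it was called in the 16 libraries without atrial transcripts (1.35, adjusted p 0.0107), in the 15 libraries (adjusted p 0.0133) and with an atrial score as a covariate (1.13, adjusted p 0.00955). Calls numbered 4 in the 16 libraries (10.3% of genes) and 6 in the 15 (11.9%), where Col5a2 and Col16a1 were added.

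Markers of central nervous tissue moved with this comparison. Of 12 such markers 11 were called higher in chow renin, with a mean of 3.23 to 4.07 log2 CPM against 1.05 to 1.76 in chow control, and 3 of 5 tested Schwann cell markers were higher. Proliferation genes moved too, with 5 of 6 higher (2.34 to 2.81 log2 CPM in chow renin, 1.42 to 1.66 in chow control). Lower were 2 of 8 cardiomyocyte, 1 of 8 macrophage and 1 of 5 epicardial markers and 2 of 9 clock genes of the Dbp group, and 2 of 5 of the Arntl group were higher. Apart from fits with a score as a covariate, the part of these lists in the collagen values was not tested. With the central nervous score added to the fit edgeR called 0 of 38 members and 0.191% of genes, and 2 members had an unadjusted p under 0.05, as did 7.91% of genes. In that fit Col11a1 turned to -0.79 (SE 1.07, adjusted p 0.906), Col25a1 was at 0.32 (SE 0.86) and Col19a1 at 3.21 (SE 1.19, adjusted p 0.466). Across 21 libraries the score and the group of chow renin cannot be told apart. Of 52 processing genes 2 were higher and 1 lower, where 10.1% of all genes were called higher and 3.36% lower. Fn1, the fibronectin gene (1.09, SE 0.21, adjusted p 0.000923), and the collagenase Mmp13 (1.48, SE 0.28, adjusted p 0.000519) were higher, and the lysyl hydroxylase Plod1 was lower (-0.33, SE 0.07, adjusted p 0.00277).

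**Figure D3:**
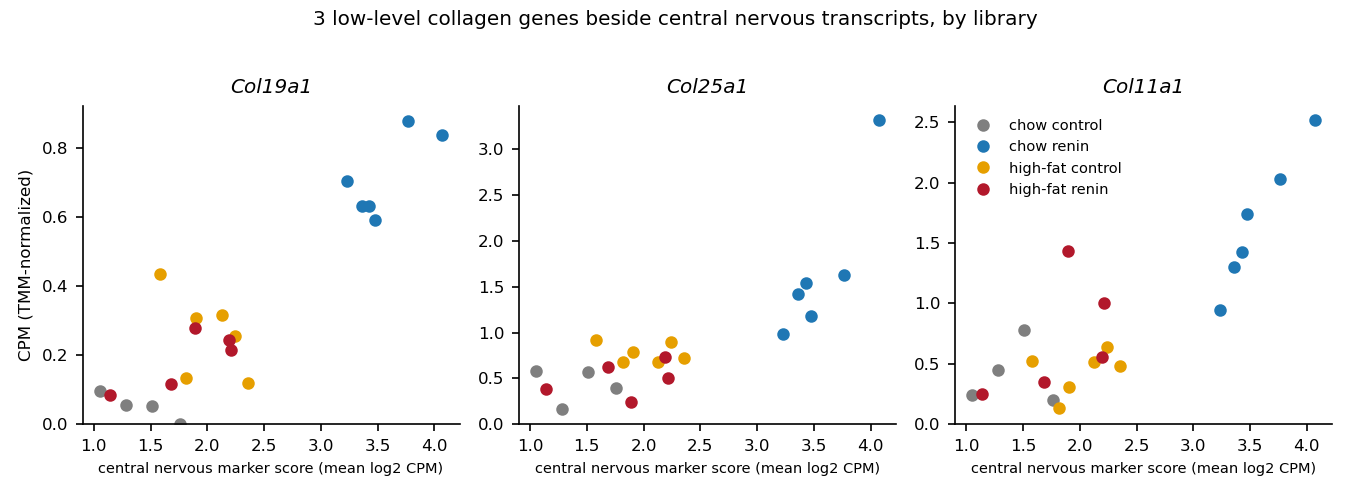
Normalized CPM of Col19a1, Col25a1 and Col11a1 (vertical axes, from 0) against the mean log2 CPM of 12 central nervous markers (horizontal axes), with 1 point per library. The 6 chow renin libraries lie apart at a score of 3.23 to 4.07, with the highest Col19a1 and Col25a1 values of the series.

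The high-fat diet alone was compared with chow control in the groups without renin. No collagen gene was called: 0 of 38 by edgeR, where 0.0657% of all genes were called (0.0131% higher and 0.0526% lower). DESeq2 called 0 of 38 as well, and 2 of 38, Col19a1 and Col25a1, had an unadjusted p under 0.05 in edgeR, as did 11% of all genes. For these 2 members every high-fat control library was above every chow control, against 1.06% of genes. Col19a1 had 3 to 10 reads per high-fat control library and 0 to 2 in the chow controls (fitted log2 fold change 2.24, SE 0.58, adjusted p 0.138), and Col25a1 differed by 0.84 (SE 0.38, adjusted p 0.426). Without chow control 3 the count at an unadjusted p under 0.05 was 9 (11.9% of genes), with Col6a1, Col6a2, Col6a3, Col15a1, Col16a1, Col18a1 and Col27a1 added, all higher in high-fat control. It was 5 in the 16 libraries without atrial transcripts (9.45%) and 1 in the 15 (8.37%), and 0 members were called in each of these fits. Col8a1 measured 12.5, 15.2 and 19.9 CPM (lowest, median, highest) in high-fat control and 13.8 to 20.1 CPM in chow control, a log2 fold change of -0.06 (SE 0.24, adjusted p 0.957). Col1a1, Col1a2 and Col3a1 showed log2 fold changes of 0.31, 0.15 and 0.35 (SE 0.32, 0.25 and 0.32), and Col4a1 and Col4a2 of -0.01 and 0.02. Col5a1, Col5a2, Col6a1, Col6a3, Col12a1, Col14a1, Col15a1 and Col18a1 lay between 0.20 and 0.41 (adjusted p 0.556 or more). High-fat control 6 widened these groups: its Col3a1 was 426 CPM, and the other 5 libraries had 116 to 198 CPM. Without it alone Col1a1, Col1a2 and Col3a1 differed by -0.01, -0.06 and -0.03. Without chow control 3 they differed by 0.59, 0.40 and 0.54, in the 16 libraries by 0.52, 0.30 and 0.52, and in the 15 by 0.08, 0.0041 and 0.04 (adjusted p 0.5 or more in each of these fits). Of the 52 processing genes 0 were called.

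Renin on the high-fat diet was then compared with high-fat control, where both groups had the diet. Network collagens held most of the calls. The called members were 9 of 38, 8 higher and 1 lower, where 11.1% of all genes were called (6.07% higher and 5.08% lower). By class these were 5 of 8 network, 1 of 10 fibrillar, 1 of 8 FACIT and 2 of 12 other members. The median log2 fold change was 0.38 over members and -0.01 over all genes. For 3 members, Col4a5, Col8a1 and Col15a1, every high-fat renin library was above every high-fat control (1.95% of genes).

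Col8a1 again rose most among members averaging at least 1 TPM, from 15.2 ± 2.67 CPM (n = 6) to 47.1 ± 18.8 CPM (n = 5), a log2 fold change of 1.62 (edgeR adjusted p 0.00048, SE 0.22). Col4a1 and Col4a2 showed log2 fold changes of 0.64 (SE 0.14, adjusted p 0.00772) and 0.52 (SE 0.12, adjusted p 0.01), with 4 of 5 high-fat renin libraries above all high-fat controls. Col4a3 and Col4a5, chains of the type IV trimer best known from kidney, lung and eye, were higher by 0.92 (SE 0.23, adjusted p 0.0123) and 0.41 (SE 0.12, adjusted p 0.0281). Col4a5 measured 36.8, 37.6, 37.0, 36.1 and 36.5 CPM in high-fat renin and 17.5, 28.4 and 35.5 CPM (lowest, median, highest) in high-fat control. Col5a2, Col15a1 and Col9a2 were higher by 0.79, 0.56 and 1.998 on the log2 scale (adjusted p 0.00943, 0.0181 and 0.0188).

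Col6a6, an alternative type VI chain, was the member called lower. It measured 9.46, 11.0 and 16.6 CPM (lowest, median, highest) in high-fat control and 3.41, 6.18, 8.97, 10.4 and 2.41 CPM in high-fat renin, a log2 fold change of -0.93 (edgeR adjusted p 0.0451, SE 0.29). The groups overlapped, since replicate 4 of high-fat renin lay above the lowest control. Its call was lost in 16 of 21 fits that left out 1 library (adjusted p up to 0.134), and in the 16 libraries without atrial transcripts it was lost at a fold of similar size (-0.99, adjusted p 0.0617). The fit with the atrial score as a covariate kept it (-1.001, adjusted p 0.0263).

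Col1a1, Col1a2 and Col3a1 differed by 0.53, 0.50 and 0.51 on the log2 scale and did not pass (adjusted p 0.274, 0.181 and 0.281). Col5a1, Col6a1, Col6a3, Col12a1, Col14a1 and Col18a1 did not pass (0.11 to 0.72, adjusted p 0.114 or more). Some of these calls turned on high-fat control 6: without it 14 members and 8.81% of genes were called, among them Col1a1 (adjusted p 0.0422), Col1a2 (0.0426), Col3a1 (0.0136), Col5a1 (0.0163) and Col6a3 (0.0254). Col12a1 was called without high-fat control 3 (0.02), and Col6a1, Col14a1 and Col18a1 in no fit that left out 1 library. Without high-fat renin 1 the count was 4 (4.58% of genes). Without it Col4a3, Col4a5, Col9a2 and Col15a1 lost their calls (adjusted p up to 0.0795), Col4a5 also without high-fat control 2 or high-fat renin 2 or 5, Col9a2 without high-fat renin 2 and Col15a1 without high-fat renin 5. The 16 libraries without atrial transcripts gave 11 calls (9.83% of genes), with Col4a4, Col8a2 and Col12a1 added, and the 15 libraries gave 20 (9.61%), with Col1a1, Col1a2, Col3a1, Col6a1 and Col14a1 among them. With the clock score as a covariate edgeR called 0 of 38 and 0.0526% of genes, and 4 had an unadjusted p under 0.05, as did 8.62% of genes. The 9 called members kept their sign in that fit, with Col8a1 at 1.03 (SE 0.21, adjusted p 0.0917), Col4a1 at 0.33, Col4a3 at 0.34 and Col6a6 at -0.42. The score of the Dbp group did not overlap here either, by a narrow margin, at 5.85 to 6.04 log2 CPM in high-fat control and 5.49 to 5.84 in high-fat renin. The covariate itself overlapped slightly, at 3.16 to 3.54 in high-fat control and 2.21 to 3.25 in high-fat renin, and the part of the clock was not tested beyond this fit. Markers also moved here: 3 of 7 of activated fibroblasts were higher (4.17 to 4.56 log2 CPM against 2.06 to 4.13 in high-fat control), 5 of 8 of cardiomyocytes were lower and 1 higher, 1 of 9 of fibroblasts was higher and 2 lower, 1 of 8 of pericytes and smooth muscle was lower, and 4 of 6 of proliferation were higher and 1 lower. Of the other lists, 1 of 5 atrial markers and 1 of 5 clock genes of the Arntl group were higher, and 2 of 9 of the Dbp group were lower. With the fibroblast score as a covariate 24 members had an unadjusted p under 0.05 (26.8% of genes), where the main fit had 13 (26.5%). The count called in that fit is given with the processing below. Apart from this and the clock fit, the part of these lists in the collagen values was not tested. Among 52 processing genes 6 were higher and 0 lower, where 6.07% of all genes were called higher and 5.08% lower. The 6 were P4ha1 at 0.75 (SE 0.13, adjusted p 0.0019), P3h2 at 0.91, Plod2 at 0.43, Sparc at 0.52, Bgn, the proteoglycan biglycan, at 0.87 and P4hb at 0.18.

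**Figure D4:**
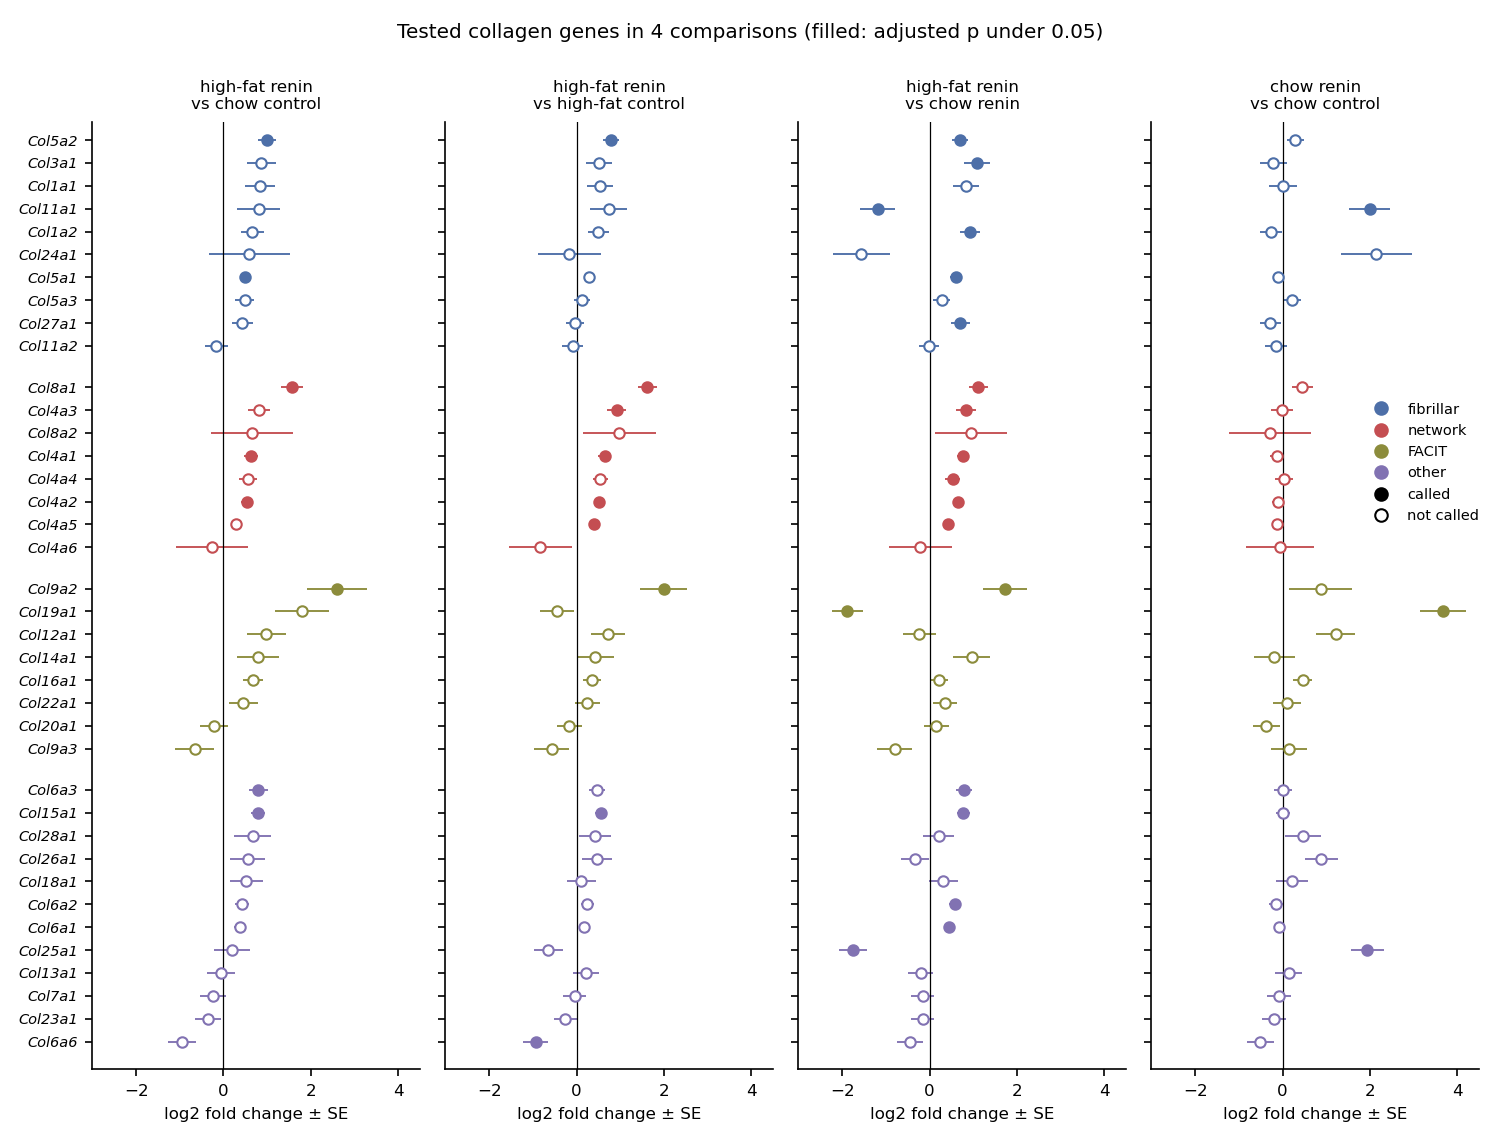
Log2 fold change with its standard error (horizontal axes) of the 38 tested collagen genes in 4 comparisons, coloured by class, with filled points for genes called at an adjusted p under 0.05. Network genes are filled in 5 of 8 cases for renin on the fat diet and in 0 of 8 cases for renin on chow.

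The diet under renin was read from high-fat renin against chow renin. The called members were 19 of 38, 16 higher and 3 lower, where 22.6% of all genes were called (9.8% higher and 12.8% lower). By class, 6 of 8 network genes were higher, 5 of 10 fibrillar genes were higher and 1 lower, 1 of 8 FACIT genes was higher and 1 lower, and 4 of 12 other members were higher and 1 lower. Of the type VI chains Col6a1, Col6a2 and Col6a3 were higher, and Col6a6 did not pass (-0.45, adjusted p 0.31). The 3 lower members were Col11a1, Col19a1 and Col25a1. For 11 members every high-fat renin library was above every chow renin library, against 5.55% of genes: Col1a1, Col1a2, Col3a1, Col4a5, Col5a1, Col5a2, Col6a1, Col6a2, Col6a3, Col8a1 and Col15a1.

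Col3a1 measured 107, 129.7 and 159.8 CPM (lowest, median, highest) in chow renin and 195 CPM or more in high-fat renin, a log2 fold change of 1.08 (edgeR adjusted p 0.0128, SE 0.29). Col1a2 had a log2 fold change of 0.92 (SE 0.24, adjusted p 0.00793), and Col1a1 had 0.83 (SE 0.30, adjusted p 0.0551), just outside the threshold although its libraries did not overlap. Col8a1 was 1.12 higher (SE 0.21, adjusted p 0.000687). Col4a1, Col4a2, Col5a1, Col5a2, Col6a1, Col6a3 and Col15a1 were called with log2 fold changes of 0.45 to 0.78. Col4a3 (0.84), Col9a2 (1.73) and Col27a1, a fibrillar chain of cartilage (0.71), were called too, and so were Col4a4 (0.53), Col4a5 (0.42) and Col6a2 (0.58), which complete the count and fall outside the naming rule. Col19a1, Col25a1 and Col11a1 were lower by -1.88, -1.75 and -1.19. Col12a1, Col14a1 and Col18a1 did not pass (-0.23, 0.97 and 0.31). In the 16 libraries without atrial transcripts 21 members and 16.2% of genes were called: Col1a1 (1.07, adjusted p 0.047), Col8a2 (2.43, adjusted p 0.00256) and Col14a1 (1.35, adjusted p 0.0168) were gained and Col11a1 was lost (-1.26, adjusted p 0.0746). Col14a1 was also called with the atrial covariate (adjusted p 0.00605) and in the 15 libraries (adjusted p 1.22e-05), where 22 members and 18.9% of genes were called.

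In this comparison 11 of 12 central nervous markers were called lower in high-fat renin. With that score as a covariate edgeR called 0 of 38 members and 0.269% of genes, and 0 had an unadjusted p under 0.05, as did 5.4% of genes. Of the 19 called members 18 kept their sign in that fit, and Col11a1 turned to 0.97 (SE 0.84, adjusted p 0.976). Some folds shrank, as for Col4a1 (0.763 to 0.144, SE 0.290), Col4a2 (0.652 to 0.0673, SE 0.245) and Col6a3 (0.782 to 0.192, SE 0.420). Others stayed near their size, as for Col5a2 (0.704 to 0.662, SE 0.441) and Col4a5 (0.416 to 0.431, SE 0.275). The score did not overlap between these groups, at 3.23 to 4.07 log2 CPM in chow renin and 1.14 to 2.21 in high-fat renin. Score and group can therefore not be told apart in this comparison. Activated fibroblast markers were higher in 4 of 7 cases, as were 2 of 9 fibroblast, 2 of 8 endothelial and 1 of 5 epicardial markers. Of 8 cardiomyocyte markers 4 were lower and 2 higher, and 3 of 5 Schwann cell markers, 3 of 9 clock genes of the Dbp group and 1 of 6 proliferation genes were lower. With the fibroblast score as a covariate 25 members had an unadjusted p under 0.05 (37.3% of genes), where the main fit had 22 (33.7%). Apart from fits with a score as a covariate, the part of these lists was not tested. Among fits without 1 library Col4a4 lost its call in 7, Col11a1 in 5, Col9a2 and Col27a1 in 2 each and Col4a3 in 1, while the other 14 members kept theirs in 21 of 21. Col1a1 was called without chow control 3, chow renin 1, or high-fat control 5 or 6 (adjusted p down to 0.0159). Processing genes were called in 17 of 52 cases, 15 higher and 2 lower, where 9.8% of all genes were called higher and 12.8% lower. They include P4ha1 (0.96), Serpinh1 (0.67), Plod1 (0.37) and Adamts2, the enzyme that removes procollagen N-propeptides (0.83), all higher, and Mmp13 (-2.22) and Fn1 (-0.81), both lower.

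The interaction asks whether renin acted differently on the high-fat diet than on chow. It was called for 5 of 38 members, 3 positive and 2 negative, where 10.4% of all genes were called (3.14% positive and 7.3% negative). The positive ones were Col8a1 (1.18, SE 0.32, edgeR adjusted p 0.0211), Col4a1 (0.77, SE 0.21, adjusted p 0.0199) and Col4a2 (0.64, SE 0.18, adjusted p 0.0255). For Col4a1 the effect of renin was -0.13 with chow and 0.64 with the fat diet. The negative ones were Col19a1 (-4.12, SE 0.67, adjusted p 0.000127) and Col25a1 (-2.59, SE 0.50, adjusted p 0.000849). Col1a1, Col1a2 and Col3a1 had interactions of 0.52, 0.77 and 0.73 (adjusted p 0.536, 0.181 and 0.34), and Col5a1, Col5a2, Col6a1, Col6a3, Col12a1, Col14a1, Col15a1 and Col18a1 did not pass (-0.49 to 0.62, adjusted p 0.112 or more). Of 52 processing genes 5 were called positive and 2 negative, where the shares of all genes were 3.14% and 7.3%. P4ha1 (0.83), P3h2 (0.96), Serpinh1 (0.53), Plod1 (0.46) and Adamts2 (0.87) were positive and Fn1 (-0.94) and Mmp13 (-1.76) negative.

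The interaction of Col8a1 lost its call without chow control 3 (adjusted p 0.053), and that of Col4a2 without chow control 4, chow renin 1 or high-fat renin 5 (adjusted p 0.0524 to 0.0551). Without high-fat control 6 the count was 10 (10.3% of genes). In the 16 libraries without atrial transcripts the count was 4 (7.17%), with Col4a2 lost (0.63, adjusted p 0.0568). In the 15 libraries it was 12 (7.62%), with Col1a1, Col1a2 and Col3a1 gained and Col4a1 (0.78, adjusted p 0.0639) and Col4a2 (0.64, adjusted p 0.0825) lost at about the same size. Central nervous markers had a negative interaction in 11 of 12 cases. With the central nervous score added to the fit edgeR called 0, with 2 at an unadjusted p under 0.05 (4.92% of genes). The interactions of Col4a1 and Col4a2 turned to -0.07 and -0.16. Those of Col8a1 (0.80, SE 0.69), Col19a1 (-3.64, SE 1.29) and Col25a1 (-0.87, SE 0.95) kept their sign.

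The authors' deposited table holds a comparison headed by the high-fat diet with virus, whose reference group is not stated. Of the 44 members, 39 have an adjusted p in the authors' deposited table, 10 of them higher and 2 lower at under 0.05. Of 16122 genes with an adjusted p in the authors' deposited table, 3.81% were higher and 4.22% lower. The authors' deposited table gives log2 fold changes of 1.46 for Col8a1, 0.82 for Col5a2, 0.68 for Col15a1, 0.47 for Col4a1 and 0.43 for Col4a2, and 0.26 for Col1a1 and 0.25 for Col3a1, which did not pass there. Sizes there are not on a like scale with the edgeR folds: Col9a2 was at 0.38 in the authors' deposited table (adjusted p 0.0344) and at 2.60 by edgeR against chow control. Fold sizes were therefore not compared between the sources. The 2 lower members in the authors' deposited table were the type VI chains Col6a5 (-1.20, adjusted p 0.00149) and Col6a6 (-0.44, adjusted p 0.028). Col6a5 had at most 10 reads in any library and was not tested here.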

How the data were processed

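RNA of 21 mouse hearts was sequenced. The authors quantified transcripts with Salmon 1.10.2 on GRCm38/mm10, per the submitters' processing notes, and deposited estimated counts and TPM (transcript levels corrected for length and library size) for 119215 transcripts per library. The deposited gene matrix holds a normalized signal per library, whose scaling is not given in the sources used here, and the authors' log2 fold changes and adjusted p-values for 1 comparison, with DESeq2 1.40.2 named in the submitters' processing notes. No column of per-sample values was set aside.

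Estimated counts were summed to genes with GENCODE M21, which held 97.95% of the transcripts, and rounded. Rows without a gene held 0.854 to 0.925% of reads. edgeR 4.0.16 in R 4.3.3 (TMM factors 0.886 to 1.09, filterByExpr, robust quasi-likelihood F test) was fitted once to all 21 libraries, since 4 groups share 1 estimate of spread, with 6 comparisons and Benjamini-Hochberg adjustment over 15216 genes. CPM are TMM-normalized, and marker scores are mean log2 CPM with a prior count of 2. The standard error is the log2 fold change divided by the root of F. P-values measure the spread between these libraries. In simulated data for high-fat renin against chow control (15018 genes), 89% of changes of log2 size 1 were called, with 5.05% false calls. Those counts were drawn independently, without atrial or clock differences between libraries, and changes were set only in genes above 1 CPM. The shares therefore do not carry over to members below that level or to such differences.

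The members and lists were chosen with earlier results of these data known. Members called in a comparison are named, up to the 15 with the largest change, and 14 fixed members are named in each comparison. Alternatives were DESeq2 1.42.0, limma 3.58.1 on log2(signal + 1), other scaling, filters, a length offset, a replicate block, score covariates and leaving out each library. After seeing the data an atrial score covariate and fits without the 5 atrial libraries, and without high-fat control 6 as well, were added. The last was chosen after its collagen values were seen. In comparisons without the high-fat control group its removal acts through the shared spread, and collagen calls gained that way are not independent support. Counting was not stated to use strand, so reads in bases that genes share cannot be assigned.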

Additional observations from a re-analysis of the deposited data

Results flagged for a closer look

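In 24 named members, 96 sets of values (1 gene in 1 group) were screened for a library far from the rest of its group, and 12 were found, where chance gives about 1 in 20. Of these, 5 were in chow control 3, the chow control with atrial transcripts: Col1a1 at 155 CPM, Col1a2 at 194 CPM, Col4a5 at 36.3 CPM, Col14a1 at 17.1 CPM and Col18a1 at 21.4 CPM. High-fat control 3, which also holds atrial transcripts, stood apart for Col12a1 at 5.90 CPM and Col18a1 at 34.2 CPM. High-fat renin 4 stood apart for Col1a1 at 272 CPM, Col1a2 at 285 CPM and Col12a1 at 5.48 CPM. The other 2 values were Col3a1 at 426 CPM in high-fat control 6 and Col25a1 at 3.32 CPM in chow renin 2.

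The interaction term of edgeR's fit was called for 5 of 38 members (13.2%), near the share of 10.4% among all genes (3.14% positive and 7.3% negative). The effect of renin was more positive on the high-fat diet for Col8a1 (1.18), Col4a1 (0.77) and Col4a2 (0.64), and more negative for Col19a1 (-4.12) and Col25a1 (-2.59). Col4a1 and Col4a2 lost their calls in the 15 libraries without atrial transcripts and high-fat control 6 (adjusted p 0.0639 and 0.0825), and turned to -0.0688 and -0.16 when the central nervous score was added to the fit. Col8a1 (0.80), Col19a1 (-3.64) and Col25a1 (-0.87) kept their sign with that score but lost their calls (adjusted p 0.917 or more). Without chow control 3 Col8a1 lost its call too (adjusted p 0.053).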

How the results depend on the processing

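For the combined model against chow control the count of 8 called collagens was 0 with the clock covariate, 17 with the fibroblast covariate (10.9% of all genes called), 17 in the 16 libraries without atrial transcripts (8.34%), 21 in the 15 without high-fat control 6 too (11.6%), and 3 to 14 when 1 library was left out. For renin on chow the count of 3 was 0 among genes of at least 20 CPM, where its 3 members are not tested, 0 with the central nervous covariate (0.191%), 7 with the fibroblast covariate (17.1%) and 6 in the 15 libraries (11.9%). For renin on the fat diet the count of 9 was 0 with the clock covariate, 21 with the fibroblast covariate (11.8%), 4 with only the groups compared (3.81%), 20 in the 15 libraries (9.61%), and 4 to 14 when 1 library was left out. For the diet under renin the count of 19 was 10 at 20 CPM or more (17.2%) and 0 with the central nervous covariate (0.269%). The 5 interaction calls were 0 at 20 CPM or more, 0 with the central nervous covariate, 8 with the fibroblast covariate (13.1%), 12 in the 15 libraries (7.62%, with Col4a1 and Col4a2 lost at adjusted p 0.0639 and 0.0825), and 4 to 10 when 1 library was left out, and fitting only the groups compared gives no interaction. With the central nervous covariate Col11a1 turned to -0.79 for renin on chow and to 0.97 for the diet under renin, and the interactions of Col4a1 and Col4a2 to -0.0688 and -0.16. Without a call in either fit, Col12a1 for the diet under renin turned to 0.39 with the length offset, 1.18 with the central nervous covariate, 0.15 by limma, 0.0639 in both the 16 and the 15 libraries, Col18a1 there to -0.11 with the fibroblast covariate, and Col18a1 for renin on the fat diet ranged from -0.0283 to 0.48 when 1 library was left out. Apart from fits that hold fewer genes or libraries by construction, the cause was not tested. No named value changed sign by DESeq2, where 62 kept their side of the threshold and 1 gained a call, or with upper-quartile scaling, where 63 kept theirs and 1 lost a call. With the replicate block the counts (with the share of all genes) were 12 (8.71%), 5 (14.8%), 0 (0%), 10 (10.4%), 21 (24.1%) and 4 (10.6%) for the combined model, renin on chow, the diet alone, renin on the fat diet, the diet under renin and the interaction. The numbers share no stated litter or day, same-numbered libraries correlated at -0.23 to 0.42 (28 pairs), and 7 of 21 matched their own number best, so they were not taken as pairs. Depth limits members such as Col19a1, with 0 to 2 reads per chow control.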

Other observations

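Collagens also differed between libraries of the same group along with atrial transcripts. Within each group the library or libraries with Myl7 over 100 CPM were set against the others, as log2 differences with 0.1 CPM added and no test. Col8a2, the partner of Col8a1, was higher in the atrial libraries by 3.34, 2.56, 2.75 and 0.60 in chow control, chow renin, the fat diet alone and high-fat renin. Col4a6, a minor basement membrane chain, was higher by 2.33, 1.68, 2.95 and 1.15, and Col18a1, which carries endostatin, by 1.22, 0.61, 1.48 and 0.63. Col14a1, a fibril coat protein, differed by 1.47, 0.92, 1.69 and -0.09. Chow control, the fat diet alone and high-fat renin each rest on 1 atrial library here, and chow renin on 2. Of 38 tested members 11 were higher in the atrial libraries in 4 of 4 groups and 2 were lower in 4 of 4, where 13.4% of the 15216 genes tested were higher and 11.7% lower. Other markers moved with the same libraries. The mean of 3 adipose markers was -0.22 to 2.03 log2 CPM in the 5 atrial libraries and -3.62 to -1.31 in the other 16. Activated fibroblast markers averaged 4.11 log2 CPM in chow control 3 against 1.90 to 2.02 in the rest of its group, 3.79 and 3.95 in chow renin 1 and 3 against 2.19 to 2.77, 4.13 in high-fat control 3 against 2.06 to 3.15, and 4.18 in high-fat renin 3 against 4.17 to 4.56. Atrial and adipose transcripts can therefore not be told apart in any of the 4 groups, nor activated fibroblast transcripts from both in the first 3, and their part in the collagen differences was not tested. In the libraries without atrial transcripts Col8a2 measured 0.274 ± 0.127 CPM in chow control (n = 3) and 1.55 ± 0.269 CPM in high-fat renin (n = 4).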
